A study of Mus musculus and Homo sapiens with 12 samples.

Results

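The genes described here handle gemcitabine, a deoxycytidine analogue used against pancreatic cancer, and the deoxynucleotides with which it competes. They are 10 genes chosen by name: SLC29A1, SLC29A2, DCK, CDA, DCTD, RRM1, RRM2, RRM2B, TYMS and SAMHD1. All 10 were found by symbol, compared in capitals, among the 18190 genes of the human comparison and the 23201 genes of the mouse comparison. Their level and fold changes played no part in how they were matched, but the 10 were chosen with earlier results of these data known.

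The samples were 12 RNA-seq libraries in 4 groups of 3 biological replicates. PANC1 LM3 is the human pancreatic ductal carcinoma line PANC1 after 3 generations of liver metastasis, and it was compared with parental PANC1. KPC LM2 is the mouse pancreatic ductal carcinoma line KPC after 2 generations, and it was compared with parental KPC. The labels give the genotype of all 4 groups as WT and name no drug, so no group is recorded as treated with gemcitabine. Per the labels' protocols, every group started from an intrasplenic injection of 500000 cells, and RNA came from the liver tumours present on day 21. The titles call all 12 samples cells, and whether whole tumours or cells taken from them were sequenced was not settled here. The strain, age and immune status of the hosts are not given in the sources used here, nor whether a selected line is 1 clone. Each model came as 1 table of the authors' own comparison, with a single row for each gene and no columns for single libraries. The depth of each sample is therefore unknown, and no value per replicate can be shown. Which group stands in the numerator of the fold change is not stated in the tables. Signs are kept as listed, and none is assigned to a selected or a parental line. Nor do the tables say that a sign means the same in both. The value after ± is the SE that the authors list, and 95% intervals were computed from it. The level of a gene is the authors' mean normalised count over all libraries of a model.

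Gemcitabine enters cells through nucleoside transporters, mainly the equilibrative transporter encoded by SLC29A1. Deoxycytidine kinase, the product of DCK, adds the first phosphate and so starts its activation. Cytidine deaminase (CDA) inactivates the drug itself, and dCMP deaminase (DCTD) acts on its monophosphate. The diphosphate inhibits ribonucleotide reductase, which makes deoxynucleotides from ribonucleotides and is built from the large subunit RRM1 with a small subunit, RRM2 or RRM2B. RRM2 is made mainly in dividing cells, and RRM2B is inducible by DNA damage. Thymidylate synthase (TYMS) makes dTMP, and SAMHD1 cleaves deoxynucleoside triphosphates and limits their pools.

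Between PANC1 LM3 and PANC1 samples, 4 of the 10 genes differed by more than 1 on the log2 scale, all with a negative sign. They were TYMS, RRM2, SLC29A1 and SAMHD1, with fold changes of 2.21 to 3.01 in size. DCK and DCTD were positive and RRM1 negative with small values, and RRM2B, SLC29A2 and CDA were not called. In all, 7 of 10 passed the adjusted p threshold of 0.05 in the authors' deposited table, with 2 positive and 5 negative signs. The background was high: 52.5% of the 17838 tested genes passed, 26% positive and 26.5% negative, so 70% of 10 genes is not far from it. With a log2 fold change under -1 required as well, 4 of the 10 genes passed and 7.34% of all tested genes did. The median log2 fold change of the 10 was -0.13, and that of all tested genes was 0.00.

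**Figure D1:**
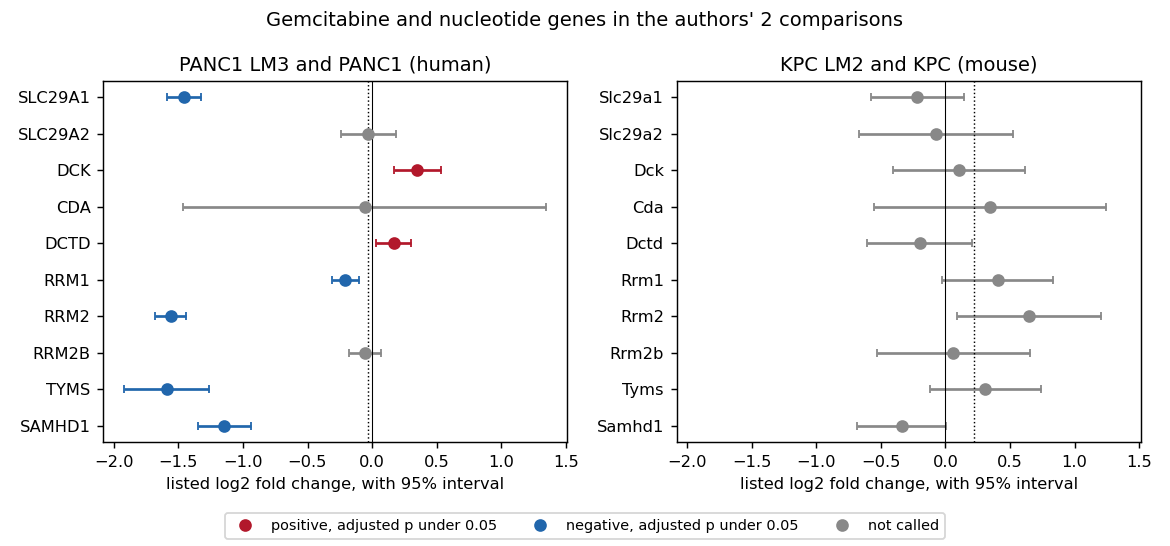
Listed log2 fold change of each of the 10 genes (points) with its 95% interval (bars), for PANC1 LM3 and PANC1 samples on the left and KPC LM2 and KPC samples on the right; the dotted line is the median of genes with a level of 64 or more. SLC29A1, RRM2, TYMS and SAMHD1 lie beyond -1 on the left, and no point on the right is called.

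The 2 equilibrative transporters differed from each other in the human model. The authors' deposited table listed SLC29A1 at -1.46 ± 0.07 on the log2 scale, with a Wald test adjusted p of 3.86e-102. Its level, the mean of normalised counts over all libraries of the model, was 3916 in the authors' deposited table. For 2 groups of equal size, that level and fold change correspond by arithmetic to about 5743 normalised counts in one group and 2089 in the other. These 2 values are computed and were not measured. SLC29A2, a second equilibrative transporter, was at -0.03 ± 0.11 with a level of 316 in the authors' deposited table (Wald test adjusted p = 0.85). SLC29A1 minus SLC29A2 was -1.43 on the log2 scale, with a 95% interval from -1.68 to -1.18 that takes both SEs as independent. Its interval leaves out 0, so the transporters did not share one change. Only 5.76% of tested genes had a lower fold change than SLC29A1.

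DCK and DCTD were called positive with small values in the human model, and CDA was not resolved. DCK was listed at 0.35 ± 0.09 in the authors' deposited table, a 1.27-fold difference opposite in sign to SLC29A1, with a Wald test adjusted p of 0.00047. DCTD was at 0.17 ± 0.07 in the authors' deposited table, with a Wald test adjusted p of 0.029. CDA was barely detected, with a level of 6.07 and a log2 fold change of -0.06 ± 0.72 in the authors' deposited table. Its 95% interval ran from -1.46 to 1.35, too wide to show either a change or its absence. DCK minus CDA was 0.41 with an interval from -1.01 to 1.82, so their difference was not resolved. When the Wald statistic was set against Student's t with 4 degrees of freedom, DCK and DCTD were no longer called, with adjusted p-values of 0.054 and 0.14. In that setting 35.6% of tested genes passed.

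Among the ribonucleotide reductase subunits, the small subunit RRM2 stood apart from its partner RRM1 and from its alternative RRM2B in PANC1. The authors' deposited table listed RRM2 at -1.56 ± 0.06, with a level of 1872 and a Wald test adjusted p of 5.44e-136. It held place 123 of 17838 genes ordered by p. By the same arithmetic, this level splits into about 2795 normalised counts in one group and 948 in the other. RRM1, the subunit that carries the catalytic site, was at only -0.21 ± 0.05 with a level of 3060 in the authors' deposited table (Wald test adjusted p = 0.00042). RRM2B was at -0.06 ± 0.06 with a level of 1817 in the authors' deposited table (Wald test adjusted p = 0.47). Its 95% interval, from -0.18 to 0.07, leaves room for little change in either direction. RRM2 minus RRM1 was -1.35 (95% interval -1.51 to -1.19), and RRM2 minus RRM2B was -1.50 (-1.67 to -1.33). RRM1 minus RRM2B was -0.15 (-0.31 to 0.02), an interval that includes 0. The call of RRM1 was lost with the trend of fold change over level subtracted, at -0.11 with an adjusted p of 0.085, where 51.9% of tested genes passed, and with Student's t, at 0.053.

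TYMS and SAMHD1 completed the 4 large negative values in PANC1. TYMS was listed at -1.59 ± 0.17 with a level of 138 in the authors' deposited table, and a Wald test adjusted p of 2.98e-20. This corresponds to about 208 normalised counts in one group and 69.1 in the other. RRM2 minus TYMS was 0.03, with an interval from -0.32 to 0.38, so these genes of deoxynucleotide synthesis could not be told apart in size. ENOSF1 overlaps TYMS on the opposite strand, and the TruSeq kit named in the labels does not mark strand. ENOSF1 was at -0.31 ± 0.08 with a level of 664 in the authors' deposited table, and reads in the overlap cannot be assigned to either gene. SAMHD1 was at -1.14 ± 0.11 with a level of 399 in the authors' deposited table (Wald test adjusted p = 3.96e-26). SAMHD1 is abundant in myeloid cells, so leukocyte markers were read beside it. Of 15 leukocyte markers 8 had a row and 7 an adjusted p in the authors' deposited table. There 2 were called positive and 2 negative, or 57.1% of 7, where 52.5% of all tested genes passed. The pan-leukocyte gene PTPRC was near 0 there, with a level of 2.26, and the macrophage receptor gene CSF1R had 8.85. The markers called negative there, with the sign of SAMHD1, were the myeloid integrin gene ITGAM at -0.92 ± 0.34 with a level of 28.5 and the granulocyte gene S100A9 at -3.42 ± 1.51 with a level of 2.30. The T cell gene CD8A was called positive at 1.54 ± 0.66 with a level of 9.48 in the authors' deposited table. CD68, a lysosomal gene that other cells also express, had a level of 1103 and a log2 fold change of 1.91 ± 0.07 in the authors' deposited table, opposite in sign to SAMHD1. The part of these markers in the SAMHD1 value was not tested.

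**Figure D2:**
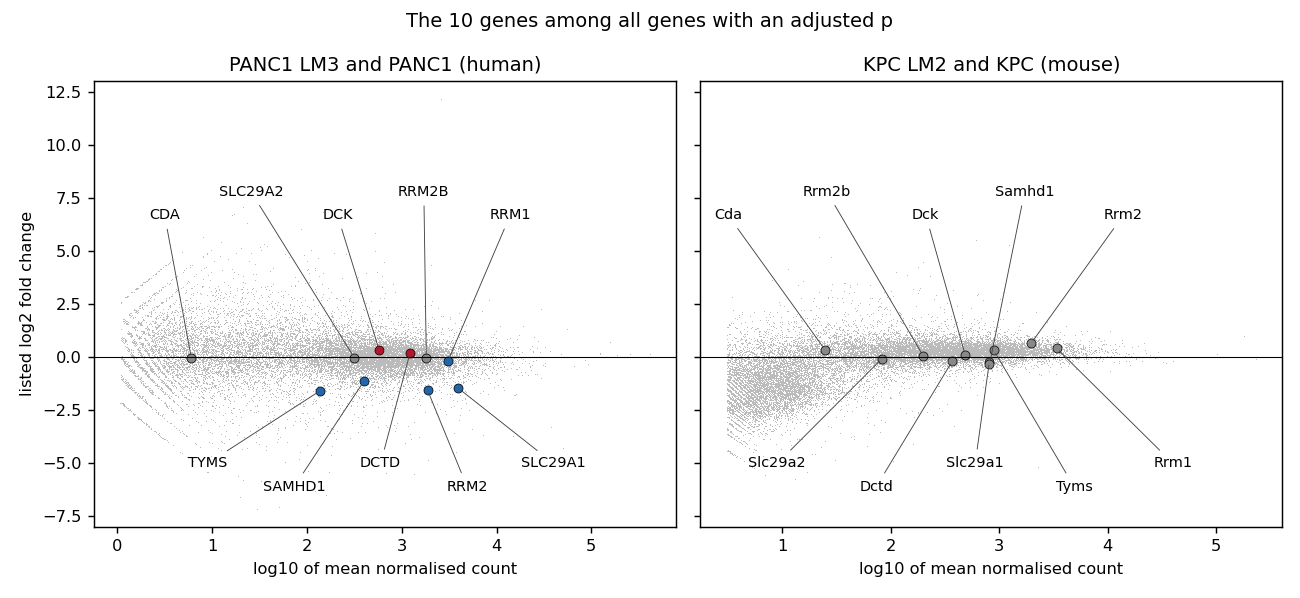
Log2 fold change against the log10 of the level (mean normalised count) for all genes with an adjusted p (grey dots), with the 10 genes marked (red positive and called, blue negative and called, grey not called); PANC1 LM3 and PANC1 samples on the left, KPC LM2 and KPC samples on the right. In the human panel RRM2 and SLC29A1 are well-expressed genes in the lower part of the cloud, with 4.96% and 5.76% of tested genes below them. In the mouse panel weakly expressed genes shift to negative values, and 9 of the 10 genes lie to the right of that region.

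Replication and mitosis genes were negative together with RRM2 and TYMS in PANC1. Of all tested PANC1 genes, 26.5% were called negative and 26% positive. Of 34 S phase genes, 31 were called negative and 1 positive in the authors' deposited table, with a median log2 fold change of -0.89. The replicative helicase genes MCM4 and MCM3 were listed there at -1.91 ± 0.07 and -1.48 ± 0.06, and the exception was the replication factor gene GINS3 at 0.65 ± 0.14. Of 20 mitosis genes all 20 were called negative in the authors' deposited table, with a median of -0.88. Among them were the cyclin B gene CCNB1 at -1.71 ± 0.06 and the proliferation marker MKI67 at -1.63 ± 0.07. The part of these genes in the values of RRM2 and TYMS was not tested. In all, 78.9% of 19 genes that regulate the 10 or the cell cycle were called, against 52.5% of all tested genes. Of these 19, 4 were called positive and 11 negative in the authors' deposited table. The transcription factor gene E2F1, whose product activates RRM2 and TYMS, was at -1.63 ± 0.10 there, and MYBL2, a proliferation factor gene, at -2.23 ± 0.11. CCNF, whose cyclin F marks RRM2 for degradation, was at -1.28 ± 0.09 in the authors' deposited table. HMGA1, a chromatin protein gene, was at 2.12 ± 0.06 and E2F4 at 0.70 ± 0.07, both positive in the authors' deposited table. The kinase genes ATR and WEE1 were not called, at -0.09 ± 0.06 and 0.09 ± 0.07 in the authors' deposited table. The replication checkpoint kinase gene CHEK1, chosen after its value was seen, was called negative at -0.30 ± 0.07 there.

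The pyrimidine and folate list held calls of both signs in PANC1. In the authors' deposited table SHMT1 and MTHFD1, which supply one-carbon units, were listed at -1.36 ± 0.16 and -0.42 ± 0.07. DHODH was at 0.89 ± 0.12, the CTP synthase gene CTPS2 at 0.74 ± 0.13 and CAD at 0.20 ± 0.06, all called positive in the authors' deposited table, and UMPS was not called at -0.03 ± 0.07. The second CTP synthase gene, CTPS1, which was chosen after its value was seen, was called negative at -0.16 ± 0.06 there. Over the pyrimidine and folate list, 3 genes were called positive and 8 negative of 12, with a median of -0.24. The share called was 91.7%, against 52.5% of all tested genes. Recentred on genes at a level of 64 or more, 3 of the list were positive and 6 negative.

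Kinases that act beside or after DCK went both ways in PANC1. Of 20 nucleoside and nucleotide kinase genes, 7 were called positive and 8 negative in the authors' deposited table, with a median of -0.29. That is 75% called, where 52.5% of all tested genes were, 26% positive and 26.5% negative. CMPK1, the kinase that adds the second phosphate to gemcitabine, was at 0.29 ± 0.06 in the authors' deposited table, with the sign of DCK. The mitochondrial deoxynucleoside kinase genes DGUOK and TK2 were also positive there, at 0.95 ± 0.08 and 0.36 ± 0.08. NME4, a mitochondrial nucleoside diphosphate kinase gene, and the adenylate kinase gene AK1 were negative at -0.89 ± 0.07 and -1.10 ± 0.09 in the authors' deposited table. The thymidine kinase gene TK1 was at -1.19 ± 0.10 there, and the thymidylate kinase gene DTYMK, chosen after its value was seen, at -0.76 ± 0.09. The uridine-cytidine kinase gene UCK2 and UCKL1 were not called, at -0.05 ± 0.06 and -0.24 ± 0.11 there.

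Enzymes that break nucleotides and nucleosides down went both ways in PANC1. NT5E, the cell-surface nucleotidase CD73, was at 2.65 ± 0.06, a 6.28-fold difference, with a level of 8337 in the authors' deposited table and an adjusted p listed as 0. The uridine phosphorylase gene UPP1 was at 1.67 ± 0.08 and the purine nucleoside phosphorylase gene PNP at 0.71 ± 0.08 in the authors' deposited table. The cytosolic nucleotidase genes NT5C3B and NT5C2 were negative there, at -0.63 ± 0.07 and -0.44 ± 0.06, as was DUT, whose product cleaves dUTP to dUMP, at -0.74 ± 0.07. The related nucleotidase gene NT5C3A was not called at -0.05 ± 0.08, nor was ITPA, which clears inosine triphosphate, at -0.07 ± 0.08 in the authors' deposited table. In all, 7 of 17 were called positive and 6 negative, with a median of -0.05. The share called was 76.5%, against 52.5% of all tested genes.

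Transporters other than SLC29A1 were negative where called in the human model. The efflux pump gene ABCG2 was at -4.51 ± 0.09, a 22.7-fold difference, with a level of 3748 in the authors' deposited table and an adjusted p listed as 0. In the authors' deposited table ABCC4 and ABCC5, which encode exporters of nucleotide analogues, were listed at -1.49 ± 0.07 and -0.56 ± 0.08. ABCC10 and the scarce ABCC11 were not called, at 0.10 ± 0.08 and 1.14 ± 0.67 there. The efflux list thus had 0 genes called positive and 3 negative of 6, or 50%, where 52.5% of all tested genes passed. Its 3 uncalled genes had positive values. On the uptake side, the lysosomal transporter gene SLC29A3 was at -1.80 ± 0.25 and SLC29A4, a relative that carries monoamines, at -0.65 ± 0.13 in the authors' deposited table. Of the concentrative transporters only SLC28A2 had a row, at a level of 4.38 and -0.13 ± 0.86 in the authors' deposited table. The uptake list thus had 0 genes called positive and 2 negative of 3, or 66.7%. Both lists hold few genes, and whether their calls lean to 1 sign was not tested. Of 6 epithelial markers, 4 were called negative and 1 positive in the authors' deposited table. In the authors' deposited table the keratin genes KRT8 and KRT18 were listed at -4.35 ± 0.06 and -3.35 ± 0.05, and EPCAM at 0.97 ± 0.10. The part of these markers in the transporter values was not tested.

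**Figure D3:**
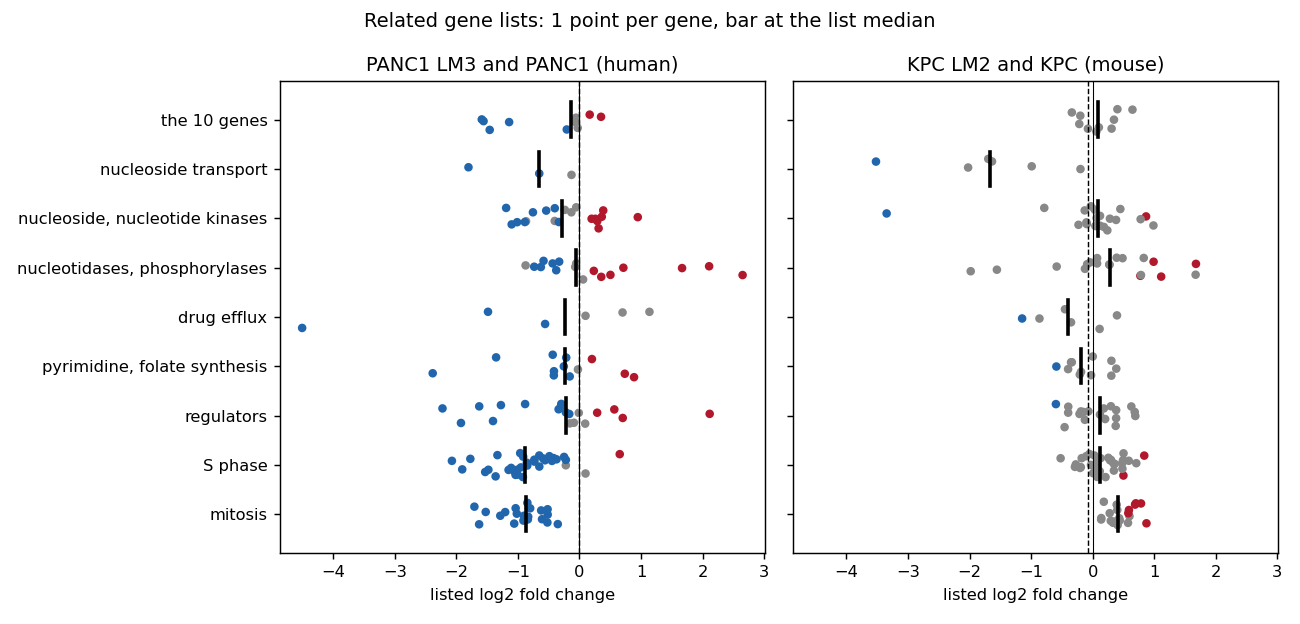
Listed log2 fold change of each tested gene (points; red positive and called, blue negative and called, grey not called) for the 10 genes and 8 related lists, with the list median (bar) and the median of all tested genes (dashed line); PANC1 LM3 and PANC1 samples on the left, KPC LM2 and KPC samples on the right. S phase and mitosis genes lie almost wholly below 0 on the left, with medians of -0.89 and -0.88, and near or above 0 on the right, at 0.12 and 0.42.

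Between KPC LM2 and KPC samples none of the 10 genes was called in the authors' deposited table, where 10.4% of 20050 tested genes passed. At that share about 1 call among 10 genes would match the background. With an unadjusted p, 1 of the 10, Rrm2, was under 0.05 by the same Wald test, as were 27.8% of tested genes. Values ran from -0.34 to 0.65, with SEs of 0.18 to 0.46, against 0.05 to 0.72 in PANC1. For 8 of the 10 genes the 95% interval stayed within 1 on the log2 scale on both sides, and the exceptions were Rrm2 and Cda. Genes with a level of 64 or more had a median log2 fold change of 0.22 in KPC and of -0.03 in PANC1, so KPC values are also given relative to that median.

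Rrm2 and Rrm1 had the highest listed values of the 10 genes in KPC, and neither was called. Rrm2 was listed at 0.65 ± 0.28, with a level of 1966 and a Wald test adjusted p of 0.11 in the authors' deposited table. Its 95% interval was 0.09 to 1.20, and relative to the median of well-expressed genes it was at 0.43 (adjusted p = 0.31). Rrm1 was at 0.40 ± 0.22, Tyms at 0.31 ± 0.22 and Rrm2b at 0.06 ± 0.30 in the authors' deposited table. Relative to the median these were 0.18, 0.09 and -0.16, so the sign of Rrm2b depends on the centre. Rrm2 minus Rrm2b was 0.59 (95% interval -0.22 to 1.40) and Rrm2 minus Rrm1 was 0.24 (-0.46 to 0.95). Both intervals include 0 and neither shows that the subunits changed alike. Per kilobase of exon, Rrm2 and Rrm1 had levels of 897 and 846, and Rrm2b had 43.6. Rrm2b was thus the scarce small subunit in the mouse samples. Exon lengths came from GENCODE M21 on GRCm38, and the authors' annotation is not given.

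No transporter, kinase or deaminase gene of the 10 was called in KPC. Slc29a1 was at -0.22 ± 0.18 with a level of 811, and Slc29a2 at -0.08 ± 0.30 with 83.0, in the authors' deposited table. Relative to the median of well-expressed genes they were at -0.44 and -0.30 (Wald test adjusted p = 0.098 and 0.54). Slc29a1 minus Slc29a2 was -0.14, with an interval from -0.84 to 0.56. Per kilobase, Slc29a1 had a level of 305 and Slc29a2 had 31.6. Dck was at 0.10 ± 0.26 and Dctd at -0.20 ± 0.21 in the authors' deposited table, or -0.12 and -0.42 relative to the median. Cda was again weak, with a level of 24.7 and a log2 fold change of 0.35 ± 0.46 in the authors' deposited table. Dck minus Cda was -0.25 (95% interval -1.28 to 0.79), so their difference was not resolved in mouse samples either.

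Samhd1 was the lowest of the 10 in KPC and the one whose call depended on the centre. It was listed at -0.34 ± 0.18, with a level of 812 and a Wald test adjusted p of 0.19 in the authors' deposited table. Relative to the median of well-expressed genes it was at -0.56 with an adjusted p of 0.024, and with the level trend subtracted at -0.57 with an adjusted p of 0.029. After recentring 10.7% of all tested genes passed, and with the trend subtracted 5.65% did. Leukocyte markers of KPC had the same sign where called: 0 positive and 2 negative of 11 tested genes, with a median of -1.47, in the authors' deposited table. That was 18.2% of these markers, where 10.4% of all tested genes passed. The marker levels were low, and the 14 markers that had a row summed to a level of 165 over the libraries. The pan-leukocyte gene Ptprc had 28.9 of these and the most abundant marker, Cd68, 33.1, in the authors' deposited table. Of the 11 tested markers, 3 were called negative and 0 positive after recentring, and 0 were called with the level trend subtracted. The part of these markers in the Samhd1 value was not tested. In a bulk sample, fewer cells of a type and less RNA per cell cannot be told apart.

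Among the related lists in KPC, the share of genes called lay above the background of 10.4% in some and below it in others. Of 34 S phase genes 2 were positive and 0 negative, and of 20 mitosis genes 6 were positive and 0 negative, in the authors' deposited table. Their medians of 0.12 and 0.42 became -0.10 and 0.20 relative to well-expressed genes, where 1 S phase gene was called positive and 2 negative, and 1 mitosis gene, Cenpf, positive. Mki67 was at 0.59 ± 0.20 and Mcm4 at -0.05 ± 0.22 in the authors' deposited table. Among 19 nucleotidase and phosphorylase genes, 4 were positive and 0 negative in the authors' deposited table. The adenosine deaminase gene Ada was at 1.68 ± 0.31, Nudt1, which clears oxidised nucleotides, at 0.99 ± 0.24 and Nt5e at 1.11 ± 0.28 there. After recentring the list had 3 positive and 2 negative calls, and these 3 genes were still positive. Dut and Nt5c3 were not called, at -0.04 ± 0.20 and 0.27 ± 0.30 in the authors' deposited table. Of 20 kinase genes, Cmpk1 was called positive at 0.87 ± 0.29 in the authors' deposited table, a call lost after recentring (0.65, adjusted p = 0.12). Cmpk2 was called negative at -3.35 ± 1.19 with a level of only 4.83 there, and that call was lost with the level trend subtracted (adjusted p = 0.49). Nme1 and Nme2 were not called, at 0.07 ± 0.16 and -0.10 ± 0.18 in the authors' deposited table.

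Efflux, synthesis and regulator genes of KPC had 1 negative call per list and no positive one, and after recentring 3, 2 and 2 negative calls and 0 positive. As reported, the shares called were 16.7%, 9.09% and 5.26%, against 10.4% of all tested genes. After recentring 10.7% of all tested genes passed, and 23.5% of those calls were positive. Of 6 efflux genes the call as reported was Abcg2, at -1.15 ± 0.24 with a Wald test adjusted p of 0.00013 in the authors' deposited table. Abcc5 and Abcb1b were at -0.45 ± 0.19 and -0.35 ± 0.26 there, and Abcc5 was called negative after recentring (adjusted p = 0.01). Of 11 pyrimidine and folate genes it was the mitochondrial folate enzyme gene Mthfd2, at -0.59 ± 0.19, with Cad and Mthfd1 not called at -0.03 ± 0.21 and -0.21 ± 0.17, in the authors' deposited table. Of 19 regulators it was Mybl2, at -0.60 ± 0.20, with the RNA-binding protein gene Elavl1 at 0.12 ± 0.21 and Rbl1 at 0.63 ± 0.23 not called, in the authors' deposited table. Of 6 transporter genes it was Slc28a2, at -3.52 ± 1.16 with a level of 6.61 in the authors' deposited table, and that call was lost with the level trend subtracted (adjusted p = 0.35). Slc29a3 and Slc28a3 were not called, at -0.20 ± 0.27 and -1.70 ± 0.84 there.

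**Figure D4:**
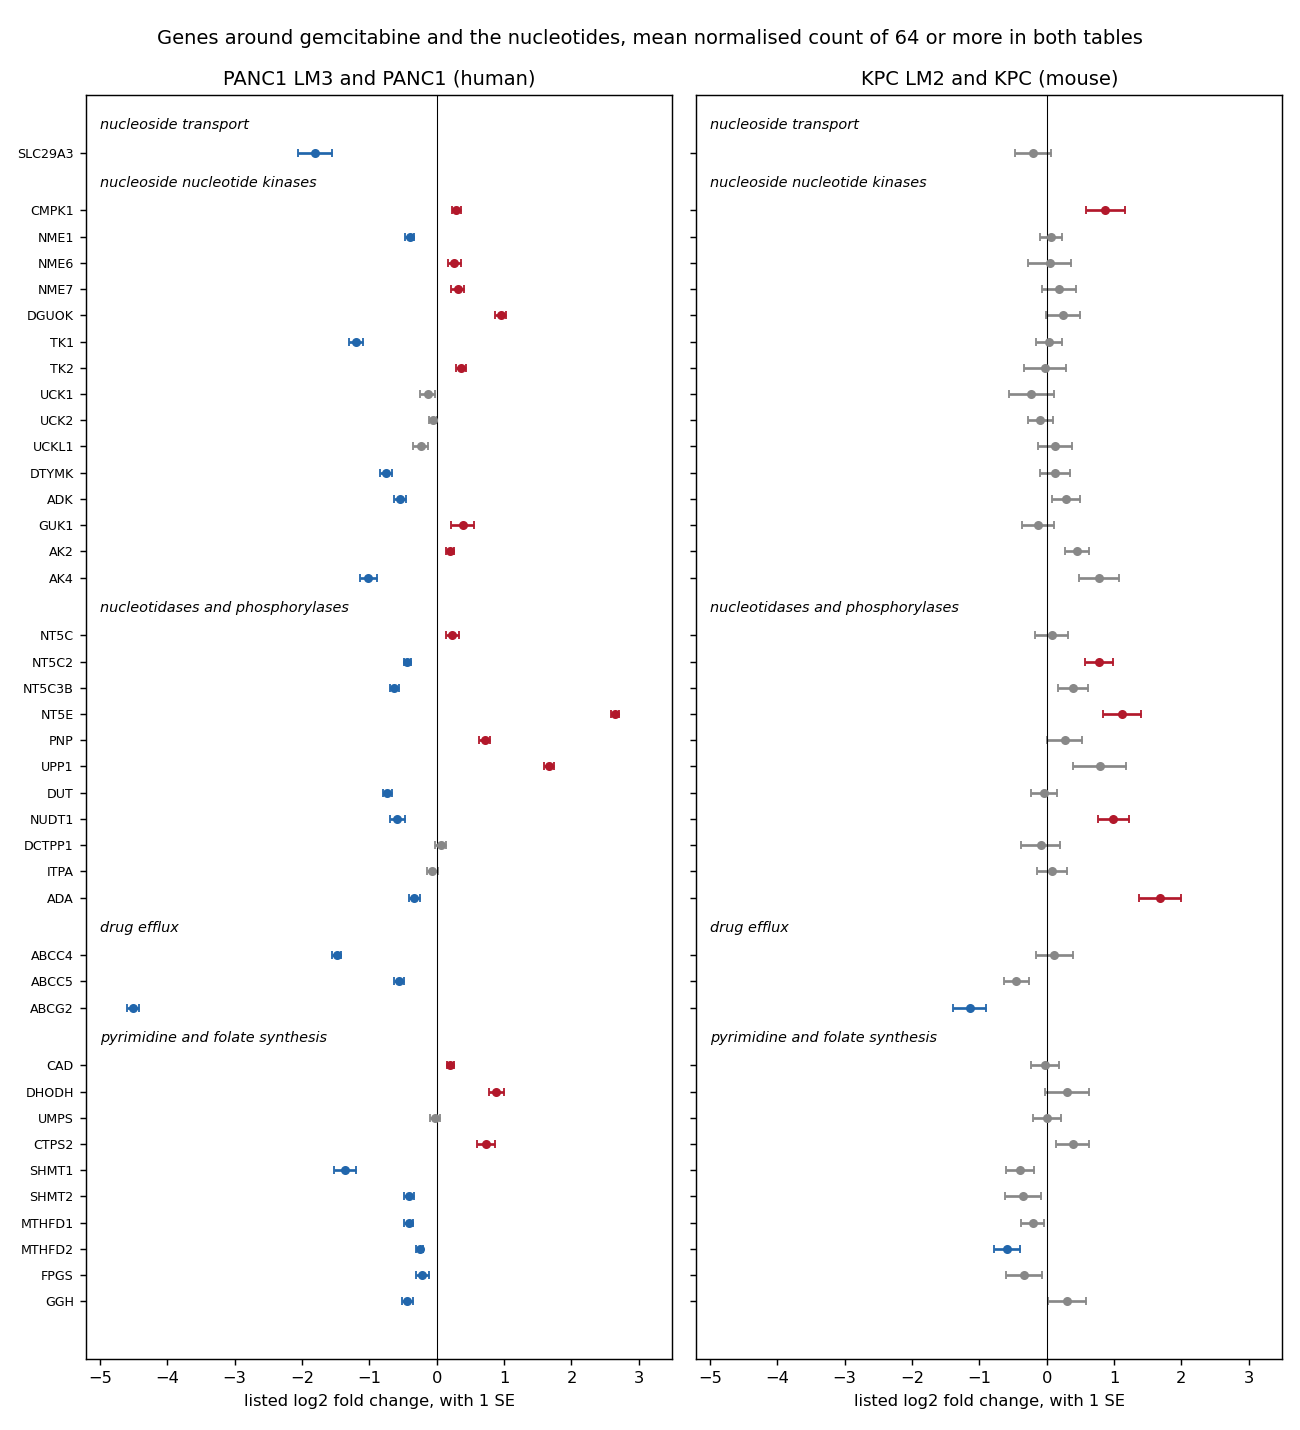
Listed log2 fold change with 1 SE for 40 genes of the transport, kinase, nucleotidase, efflux and synthesis lists that had a level of 64 or more in both tables (red positive and called, blue negative and called, grey not called); PANC1 LM3 and PANC1 samples on the left, KPC LM2 and KPC samples on the right. ABCG2 is the lowest point in each panel, at -4.51 and -1.15, and NT5E is the highest on the left at 2.65.

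Set side by side, 4 of the 10 genes had fold changes that differed between the human and the mouse model whichever way the mouse sign is read. The difference was taken once with the KPC sign as listed and once with it reversed, each adjusted over the 12777 genes tested in both tables, and a gene counted only if both passed. By that rule 13.4% of genes differed. The 4 genes are the same 4 that lay beyond -1 in PANC1, and none of the 10 was called in KPC. This comparison is therefore not independent of those results. RRM2 was at -1.56 in PANC1 and 0.65 in KPC, with adjusted p-values of 1.27e-12 as listed and 0.0085 reversed in a normal test on the deposited values. TYMS was at -1.59 and 0.31 (adjusted p = 2.54e-10 and 4.86e-05). SLC29A1 was at -1.46 in PANC1 and -0.22 in KPC (adjusted p = 4.87e-09 and 7.51e-16), and SAMHD1 at -1.14 and -0.34 (adjusted p = 0.00058 and 2.75e-11). RRM1 passed only with the sign as listed (adjusted p = 0.024, and 0.55 reversed). For DCK, DCTD, CDA, RRM2B and SLC29A2 no difference passed in either reading, which does not show that the models were alike.

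Markers of host cell types had low levels in KPC, and in PANC1 3 of them did not. In KPC the tested hepatocyte, leukocyte, fibroblast and endothelial markers all had levels under 64, and the highest was 41.4. In PANC1 only 4 of 15 hepatocyte markers had a row, the highest at a level of 17.7, and the albumin gene had none. There 2 of 8 listed fibroblast markers had 64 or more, COL3A1 with 405 and COL1A1 with 173 in the authors' deposited table, as did CD68 among the leukocyte markers, and 0 of 5 listed endothelial markers did. Whether reads of host cells entered the human table is not given in the sources used here. Epithelial keratin genes were abundant in both, with levels of 49702 for KRT8 in PANC1 and 10742 for Krt8 in KPC in the authors' deposited table.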

How the data were processed

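RNA from 12 samples, liver tumours by the labels' protocols and cells by their titles, was sequenced. The submitters' processing notes list DESeq2 1.24, MultiQC 1.9, featureCounts 2.0.0 and STAR 2.7.6a, with the builds hg19 and mm39. Settings, annotation and model design are not given in the sources used here. Per the file headers, each deposited table gives per gene a mean normalised count (a signal the headers do not define), a log2 fold change with its SE on the log2 scale, a Wald statistic (a score), and a p-value with its adjustment. The statistic matched the fold change over its SE within 9.2e-08, and the adjusted p-values matched a Benjamini-Hochberg adjustment within 2.5e-06. The columns used hold no counts per library, so the planned edgeR test was not run and the authors' deposited calls were used, at an adjusted p under 0.05.

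The 10 genes and all lists were chosen with earlier results of these data known. All 10 were named. From each other list, up to 3 called genes per sign with the smallest adjusted p and up to 2 uncalled genes of highest level were named, and marker and proliferation lists by counts with up to 3 genes. Some genes that enter the counts of the lists are not reported here by name. CD68, ITGAM, S100A9, CD8A, COL3A1, COL1A1, ENOSF1, CTPS1, CHEK1, Cenpf and DTYMK were named after their values were seen. Alternatives were a threshold of 0.01, a required absolute log2 fold change above 1, adjustment without the authors' filter on low genes, only genes at a level of 64 or more, centring on those, a running median (501 genes ordered by level) taken off, and Student's t with 4 degrees of freedom. The models were compared by a normal test on the difference and on the sum of fold changes, adjusted over genes matched by symbol; the tables were normalised separately. Steps were tested on simulated data. Software was pandas 2.3.3 and scipy 1.17.1, with numpy 2.4.6 and matplotlib 3.10.9, in Python 3.11.15. P-values measure the spread between these samples as the authors' model took it.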

Additional observations from a re-analysis of the deposited data

Results flagged for a closer look

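For 4 of the 10 genes the fold change differed between the models by a test of the difference itself, with the KPC sign as listed and reversed. Of the 12777 genes tested in both tables, 13.4% passed that rule. PANC1 minus KPC was -2.21 for RRM2, -1.90 for TYMS, -1.24 for SLC29A1 and -0.81 for SAMHD1 on the log2 scale, with the sign as listed in both tables. With the KPC sign reversed, the differences were -0.91, -1.28, -1.68 and -1.48, so the order of their sizes depends on the reading. RRM2 and TYMS carry opposite listed signs in the models, and SLC29A1 and SAMHD1 the same sign. None of the 4 was called in KPC as reported. Each table was also recentred on genes with a level of 64 or more, an alternative chosen after seeing the data. The same 4 genes then passed, with differences of -1.95, -1.65, -0.99 and -0.55 with the sign as listed. The smallest of these, SAMHD1, then had adjusted p-values of 0.025 as listed and 3.24e-14 reversed. Among the other genes, RRM1 no longer passed with the sign as listed (adjusted p = 0.22), and DCTD then did (adjusted p = 0.019, and 0.49 reversed). The share of all genes that passed both readings after recentring was not computed.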

How the results depend on the processing

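RRM2, TYMS, SLC29A1 and SAMHD1 were called negative in PANC1 under all 7 alternatives. Calls among the 10 PANC1 genes fell to 4 of 10 with an absolute log2 fold change over 1 required and to 4 with a t distribution, against 7 as reported. Without values per library, no replicate could be left out and DESeq2 or edgeR could not be run. No paired analysis was possible because the columns carry no library or replicate number. In KPC, 1 of the 10 genes, Samhd1, was called after recentring and 1, again Samhd1, with the level trend subtracted, against 0 as reported. Over all KPC genes, 2079 were called. The count was 889 at an adjusted p under 0.01, 1303 with an absolute log2 fold change over 1 and 1345 among genes of 64 or more. It was 1133 with the trend subtracted and 0 with the t distribution, where 2132 had an unadjusted p under 0.05. The share of positive KPC calls was 55.7% as reported, 23.5% after recentring and 83.4% among genes of 64 or more, so the signs of small KPC values depend on the centre. In PANC1, 9361 genes were called as reported and 2759 with an absolute log2 fold change over 1. CDA is limited by its low level in both tables.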
